A study of Mus musculus with 6 samples.

Results

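Of 9 genes at the core of the Hedgehog pathway, the receptor gene Ptch1 and the transcription factor gene Gli1 were higher in mouse embryonic stem cells after knockdown of Trim71. The log2 differences of the ligand, transducer, inhibitor and remaining Gli genes lay between -0.17 and 0.07. The 9 genes are Shh, Ptch1, Smo, Gpr161, Sufu, Gli1, Gli2, Gli3 and Hhip. They were taken as the probe sets annotated with that symbol alone, which gave 1 probe set for each of the 9, out of 19937 genes measured. The set was chosen by its pathway with the measured log2 differences between these knockdown and control arrays already known, and no threshold on a value was used. The differences of the 9 genes are therefore given as descriptions. Where the fit over all genes called a member, the call is reported but not used as support.

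Trim71 knockdown cells, 3 arrays, were embryonic stem cells that received a pool of 3 siRNAs against Trim71, which encodes a ubiquitin ligase that also binds RNA and acts in the early embryo. Control cells, 3 arrays, are labelled wild-type. The protocol names a non-targeting siRNA as the negative control, but the labels do not say whether these arrays received it. Harvest was 72 h after transfection, and no strain, cell line name or feeder layer is given. The siRNAs lower the transcript and do not remove it, and a mixed dish of cells was measured, so fewer cells of a type and less RNA per cell cannot be told apart. The values are log2 signals after robust multi-array averaging (RMA).

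In the Hedgehog pathway a secreted ligand binds Patched1 (Ptch1), which otherwise keeps the membrane protein Smoothened (Smo) silent at the primary cilium. Active Smo releases Gli transcription factors from the inhibitor Sufu and from protein kinase A, whose activity in the cilium is promoted by the receptor Gpr161. Without ligand, Gli3 and in part Gli2 are cut into repressors, and with ligand they activate targets that include Gli1, Ptch1 and Hhip. Ptch1 and Hhip hold the signal back and Gli1 carries it on. Because they are targets, Ptch1 and Gli1 transcripts are widely used as readouts of the pathway.

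The start region of Ptch1, the member with the largest difference, is shown for the sequence context of the gene. The 250 bases before its annotated start in RefSeq lie on the minus strand of GRCm38.p6 at chr13:63565736-63565985, and CpG dinucleotides are in capitals.

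Ptch1: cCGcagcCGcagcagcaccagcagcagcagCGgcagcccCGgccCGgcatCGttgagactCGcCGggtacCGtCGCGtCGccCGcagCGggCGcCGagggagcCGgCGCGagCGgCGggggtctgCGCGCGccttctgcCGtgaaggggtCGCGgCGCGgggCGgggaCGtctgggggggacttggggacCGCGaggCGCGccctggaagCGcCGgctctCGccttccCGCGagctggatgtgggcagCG

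This stretch had a GC content of 78.4% and 41 CpG dinucleotides, against a median of 52.4% and 6.0 over the same 250 bases of 32851 start regions. Its CpG count was above that of 98.9% of them. Start regions were held for 7 of the 9 members, in 8 windows, with 1 to 41 CpG dinucleotides in the 250 bases before each start. Gli1 and Shh had no entry. The consensus word of Gli proteins, GACCACCCA, was searched on both strands of each window from 250 bases before to 50 bases after the start. It was found in 0 of the 8 windows, exactly or with 1 mismatch, and in 0.253% of all windows exactly and 6.74% with up to 1 mismatch. These letters are absent from these windows, and nothing follows from that about Gli binding elsewhere.

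The knockdown was read first from its target. Trim71 read 9.0, 8.95 and 8.98 on the knockdown arrays, against 10.48, 10.50 and 10.51 on the control arrays, a log2 difference of -1.52 ± 0.045 (SE) and 34.9% of the control signal. The adjusted p was 2.8e-05 in limma, and an exact permutation test (two-sided) gave 0.1, its lowest possible value with 3 arrays a group. Knockdown array 3 stood apart from the rest, with an upper quartile of 8.42 against 8.32 to 8.35 on the others. Of all genes 5.53% passed an adjusted p of 0.05 in limma, 675 higher and 428 lower. That split turned to 603 higher and 699 lower without knockdown array 3, to 527 and 616 with each array set to the same median, and to 779 and 763 with quantile normalization repeated. All 12 embryonic stem cell markers listed, such as Pou5f1 and Nanog, were bright, with mean log2 signals from 9.78 to 12.96, and 3 of them were called higher. Their summed log2 signal was 137.3 to 138.1 on knockdown arrays and 135.8 to 136.3 on control arrays, and 11 of the 12 differences were above 0. Of the 12 genes 8 had no overlap between the groups, beside 25.5% of all genes. Of 12 fibroblast markers, which feeder cells would carry, 2 were lower, the smooth muscle genes Acta2 and Tagln, and the collagen gene Col1a1 was at -0.02. The summed log2 signal of the 12 fibroblast markers was 76.2 to 77.6 on knockdown arrays and 77.4 to 78.8 on control arrays. Of 8 neural progenitor markers, Nes was called higher and Pax6 lower, and their sum was 50.9 to 51.6 on knockdown arrays and 51.5 to 51.9 on control arrays. Of 10 mesoderm and endoderm markers 0 were called in limma, with 1 at an unadjusted p under 0.05, and their sum was 60.8 to 61.4 on knockdown arrays and 61.6 to 62.0 on control arrays. The part of these cell type markers in the differences below was not tested.

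Across the 9 members the whole-table fit called 2, Ptch1 and Gli1, both higher, beside 5.53% of all genes. The contrast is the one known when the members were proposed, so nothing is read from that count. Knockdown and control values were fully apart for the same 2 members, beside 25.5% of all genes. The median log2 difference of the 9 was -0.02 and that of all genes 0.005, with 4 members above and 5 below 0. All 9 had mean signals above 5.38, the 95th percentile of 1027 odorant receptor genes, a family mostly silent outside the nose. The brightest odorant receptor gene reached 8.09, above Shh (6.08), Gpr161 (6.22) and Hhip (6.61), so the mark does not show that these were expressed. Brightness differs between probes, so it does not rank the transcripts.

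Ptch1, which encodes the receptor that silences Smo, read 10.82, 10.79 and 10.84 on the knockdown arrays, against 10.03, 10.01 and 9.995 on the control arrays. The lowest knockdown array was 0.76 above the highest control array, and the arrays of each group lay close together. Ptch1 averaged 10.81 ± 0.026 in knockdown cells and 10.01 ± 0.017 in control cells (SD, n = 3 each). The log2 difference was 0.80 ± 0.045 (SE), or 1.75-fold with a 95% interval of 1.62 to 1.88. Of all 19937 genes it had the 14th largest positive difference. It was 0.79 without knockdown array 3.

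Gli1, the transcription factor that is both a target and an amplifier of the pathway, read 9.12, 9.03 and 9.18 on the knockdown arrays, against 8.42, 8.50 and 8.48 on the control arrays. Here too the groups were apart, with a gap of 0.53, and the knockdown arrays spread more than the control arrays. Gli1 averaged 9.11 ± 0.075 in knockdown cells and 8.47 ± 0.038 in control cells (SD, n = 3 each). The log2 difference was 0.64 ± 0.056 (SE), or 1.56-fold with a 95% interval of 1.43 to 1.71, the 43rd largest positive one. It was 0.61 without knockdown array 3.

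**Figure D1:**
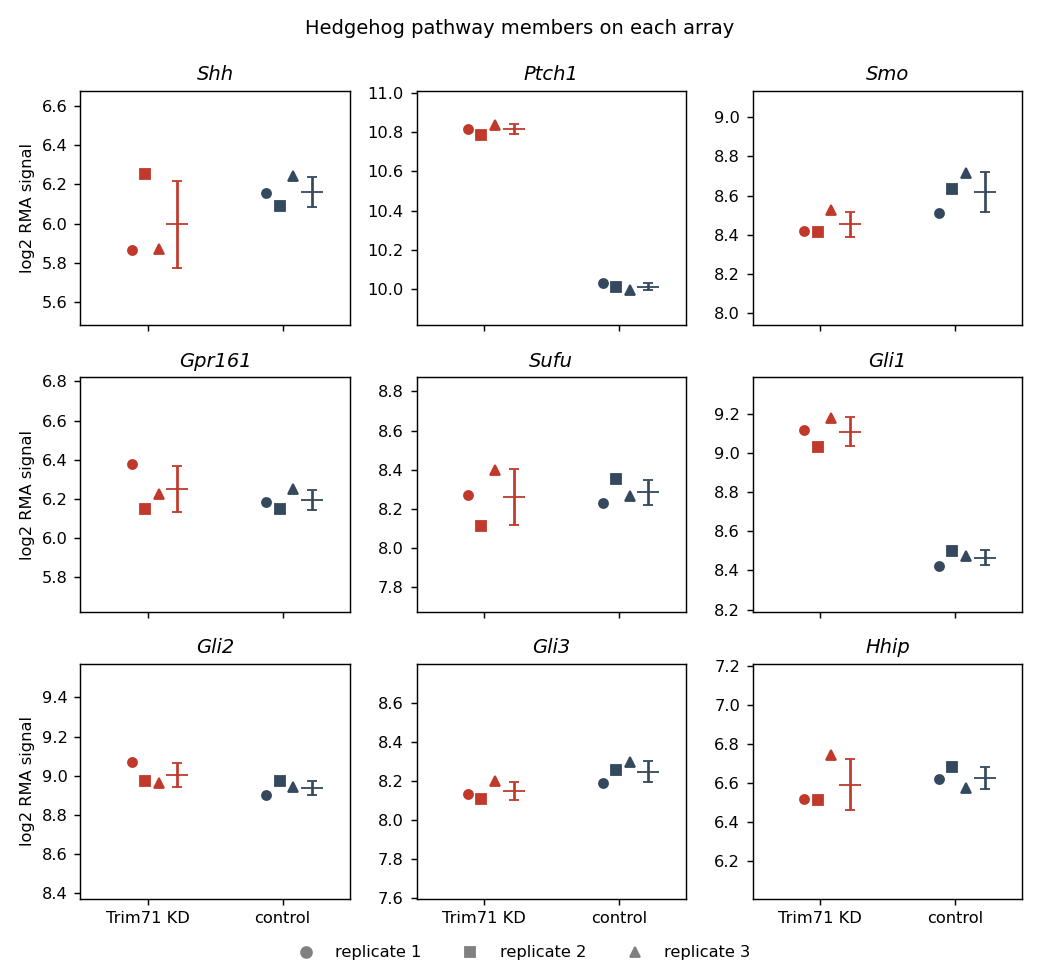
Log2 RMA signal of the 9 members (vertical axes, each spanning the same 1.2 log2 units) on the 3 knockdown arrays (left) and the 3 control arrays (right), with symbols for the replicates and bars for mean and SD. Ptch1 and Gli1 separate by 0.76 and 0.53 between the nearest arrays, and the groups overlap for the other 7.

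Hhip, a membrane protein that traps the ligand, is the third classical target among the members, and its groups were not apart. It read 6.52, 6.51 and 6.74 on the knockdown arrays, against 6.62, 6.68 and 6.57 on the control arrays. The knockdown arrays lay on both sides of the control arrays. The log2 difference was -0.03 ± 0.073 (SE), with a 95% interval of -0.20 to 0.14, which leaves out a difference as large as that of Gli1 (0.64) on this signal scale. The mean log2 signal of Hhip was 6.61, and background in dim probe sets can make a change of the transcript look smaller.

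Shh, the ligand gene, had a mean log2 signal of 6.08 and the largest standard error of the 9. It read 5.86, 6.25 and 5.87 on the knockdown arrays, against 6.16, 6.09 and 6.24 on the control arrays. Knockdown array 2 lay above all control arrays and the other two below them. The log2 difference was -0.17 ± 0.11 (SE), with a 95% interval of -0.42 to 0.08.

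Smo, the transducer that Ptch1 silences, read 8.42, 8.41 and 8.53 on the knockdown arrays, against 8.51, 8.63 and 8.71 on the control arrays. Knockdown arrays 1 and 2 lay below every control array, and knockdown array 3 overlapped with control array 1. The log2 difference was -0.17 ± 0.066 (SE), or 0.89-fold, and its 95% interval of -0.32 to -0.01 ended just below 0. It did not pass the adjustment over all genes.

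The negative regulators between Smo and the Gli proteins overlapped between the groups. Gpr161, the ciliary receptor that promotes protein kinase A, read 6.38, 6.15 and 6.22 on the knockdown arrays, against 6.18, 6.15 and 6.25 on the control arrays, a log2 difference of 0.06 with a 95% interval of -0.10 to 0.22. Sufu, which binds and holds Gli proteins, read 8.27, 8.11 and 8.40 on the knockdown arrays, against 8.23, 8.35 and 8.26 on the control arrays. Its log2 difference was -0.02, with a 95% interval of -0.21 to 0.16, and its knockdown arrays were both its highest and its lowest.

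Gli2, the main activator, and Gli3, the main repressor, differed by far less than Gli1. Gli2 read 9.07, 8.97 and 8.96 on the knockdown arrays, against 8.90, 8.97 and 8.94 on the control arrays, a log2 difference of 0.07 ± 0.052 (SE) with a 95% interval of -0.06 to 0.19. Gli3 read 8.13, 8.11 and 8.20 on the knockdown arrays, against 8.19, 8.26 and 8.30 on the control arrays, a log2 difference of -0.10 ± 0.052 (SE) with a 95% interval of -0.22 to 0.02. In both genes a single pair of arrays overlapped, knockdown array 3 with control array 2 for Gli2 and with control array 1 for Gli3. The arrays measure transcripts, so the processing of Gli2 and Gli3 proteins into repressors was not seen.

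**Figure D2:**
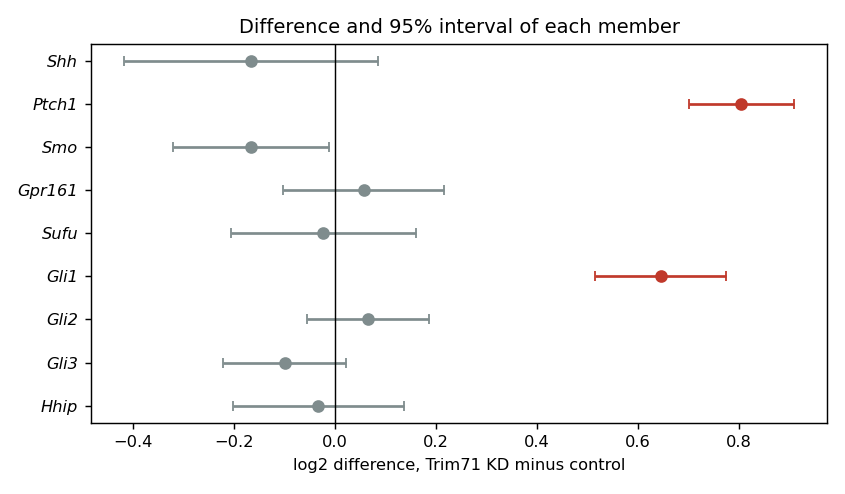
Log2 difference, knockdown minus control (horizontal axis), of each member with its 95% interval from the fit, in red where the whole-table fit called the gene. Ptch1 at 0.80 and Gli1 at 0.64 stand to the right, and the other 7 lie between -0.17 and 0.07.

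The genes whose 6 array values, each centred on its own mean, were closest to those of Ptch1 were Cpne5, a copine of the calcium-dependent phospholipid-binding family, Esrp1, a splicing regulator of epithelia, and Plxnb2, a semaphorin receptor. Their root mean square distances from Ptch1 over the 6 arrays were 0.034, 0.040 and 0.048 on the log2 scale. For Gli1 the closest were Scmh1, a Polycomb group gene, at 0.013, Sh3bp1 at 0.037, and Erbb3, a receptor of the epidermal growth factor receptor family, at 0.040. Gli1 was the 23rd closest to Ptch1, at 0.090, and Ptch1 the 57th closest to Gli1. With 2 groups of 3 arrays this distance mostly reflects the size of the group difference.

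The rest of the pathway was read from 5 textbook lists by role, which held 93 further genes, 87 of them measured. In limma, with adjustment over all genes, 7 of the 87 rose and 3 fell, 11.5% of them, beside 5.53% of all genes. Over all genes 3.39% rose and 2.15% fell. Their median log2 difference was 0.03, against 0.005 over all genes. Of the 10 calls, those for Ccnd2, Igf2, Mycn and Snai1 were known when the lists were written. Without these 4 genes 6 of 83 were called, 7.23%, so the share of 11.5% is no independent evidence about the pathway. The split was 9 higher and 6 lower with quantile normalization repeated, 4 and 5 with each array set to the same median, and 4 and 6 if knockdown array 3 was left out. The count was 4, 3 or 5 without control array 1, 2 or 3, and 4 without knockdown array 1 or 2. Of the 10, Ccnd2, Igf2 and Mycn were called under each of the 15 alternatives.

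**Figure D3:**
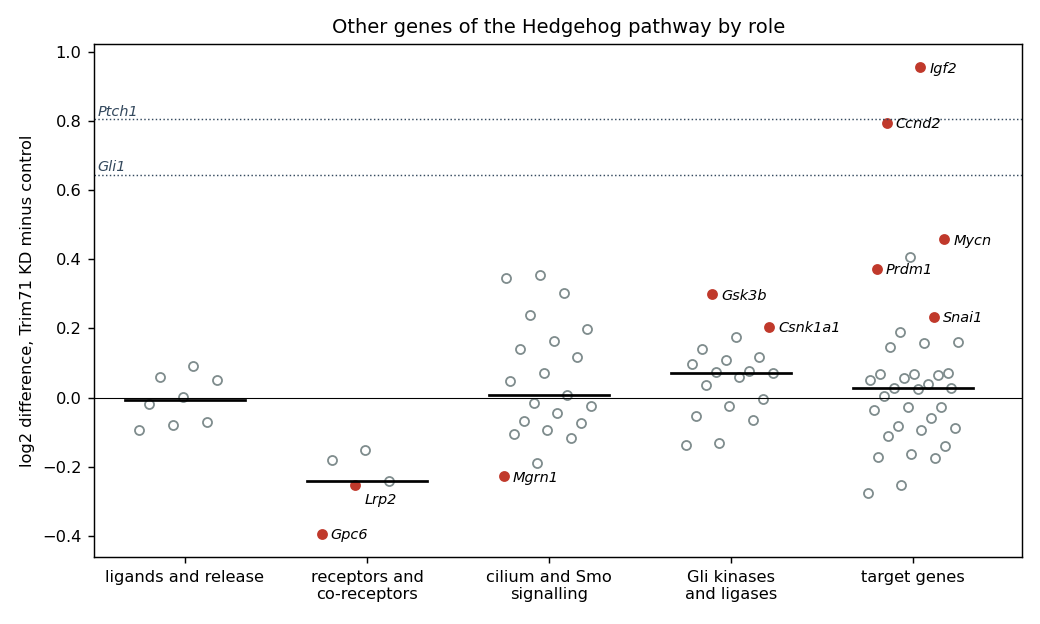
Log2 difference, knockdown minus control (vertical axis), of the 87 other pathway genes by role (horizontal axis), filled red where called, with black bars at list medians and dotted lines at Ptch1 and Gli1. The 5 receptor and co-receptor genes all lie below 0 and the 5 called target genes above it. The 8 genes listed under ligands and release, Ptchd1 among them, lie between -0.09 and 0.09.

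Among the ligand and release genes 0 of 8 were called in limma, beside 5.53% of all genes, and 0 had an unadjusted p under 0.05. The list also held Ptchd1, named for a Patched domain and not a ligand gene, at -0.08 with overlapping groups. The largest statistics were those of Disp1, which releases the lipid-bearing ligand from the cell, at -0.09 (adjusted p = 0.484), and of the other ligand genes Dhh at 0.06 (adjusted p = 0.625) and Ihh at -0.07 (adjusted p = 0.641). A difference beyond the spread between arrays was thus not detected for these 8 genes. The mean signals of Dhh (5.26) and Hhat (4.86) lay under 5.38, the 95th percentile of odorant receptor genes. A change in such dim genes could be missed.

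Among the receptor and co-receptor genes other than Ptch1, 2 of 5 fell in limma, beside 2.15% of all genes. Of 6 listed, 5 were measured, 0 rose and 3 of the 5 did not pass the test. All 5 had lower values on every knockdown array than on any control array. Over all genes 25.5% had no overlap, in either direction. Lack of overlap was not particular to this list. It was seen for 11 of 21 cilium and Smo signalling genes, 8 of 18 kinases and ligases and 14 of 35 target genes. For ligand and release genes it was 0 of 8, and for all 87 other pathway genes 38. The median log2 difference of the 5 was -0.24. Gpc6, a glypican, is a cell surface proteoglycan that promotes Hedgehog signalling. Gpc6 read 6.87, 6.73 and 6.83 on the knockdown arrays, against 7.17, 7.24 and 7.20 on the control arrays, a log2 difference of -0.39 ± 0.055 (SE, adjusted p = 0.00995). Its adjusted p was 0.0562 without control array 2. Lrp2, the endocytic receptor megalin, which binds Shh in the forebrain, read 9.09, 9.09 and 9.15 on the knockdown arrays, against 9.32, 9.38 and 9.39 on the control arrays, a log2 difference of -0.25 ± 0.048 (SE, adjusted p = 0.0275). Lrp2 kept the call without knockdown array 3 and lost it with each of the other 5 arrays left out, with an adjusted p of up to 0.124.

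Cdon, Boc and Gas1 bind the ligand together with Ptch1 and act as co-receptors, and none of these 3 passed the test. Cdon read 4.11, 4.19 and 4.22 on the knockdown arrays, against 4.33, 4.47 and 4.45 on the control arrays, a log2 difference of -0.24 ± 0.058 (SE, adjusted p = 0.0584). Its mean signal of 4.30 lay under the 95th percentile of odorant receptor genes. Boc was at -0.18 ± 0.060 (SE, adjusted p = 0.148) and Gas1 at -0.15 ± 0.062 (SE, adjusted p = 0.245).

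Cilium and Smo signalling genes showed no common direction, with a median of 0.008. Of 21 measured, 0 rose and 1 fell in limma, 4.76% of them, beside 5.53% of all genes. Mgrn1, a ubiquitin ligase that lowers Smo at the cell surface, was the lower gene. It read 8.82, 8.74 and 8.84 on the knockdown arrays, against 9.02, 9.02 and 9.04 on the control arrays, a log2 difference of -0.23 ± 0.049 (SE, adjusted p = 0.0399). The intraflagellar transport genes Ift88 and Ift172, which build the cilium, were at 0.30 (adjusted p = 0.0723) and 0.35 (adjusted p = 0.075), and Ankmy2, which brings adenylyl cyclases to the cilium, was at -0.19 (adjusted p = 0.0787), and none of these passed. Of the fits with an array left out, Mgrn1 was called only in that without knockdown array 3, with an adjusted p of up to 0.152.

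Among the kinases and ligases that act on Gli proteins, 2 of 18 rose in limma, beside 3.39% of all genes. Both encode kinases that phosphorylate Gli proteins on the way to their repressor forms, a step not measured here. Csnk1a1, casein kinase 1 alpha, read 11.17, 11.20 and 11.23 on the knockdown arrays, against 11.00, 11.01 and 10.99 on the control arrays, a log2 difference of 0.20 ± 0.045 (SE, adjusted p = 0.0433). Gsk3b, which also marks beta-catenin for destruction, read 9.37, 9.44 and 9.56 on the knockdown arrays, against 9.10, 9.23 and 9.15 on the control arrays, a log2 difference of 0.30 ± 0.066 (SE, adjusted p = 0.0447). The groups did not overlap for either gene, beside 25.5% of all genes, but both genes were picked by their calls. Both calls were lost whichever array was left out, with an adjusted p in limma of up to 0.17 for Csnk1a1 and 0.175 for Gsk3b. Spopl at 0.17, Csnk1d at 0.14 and Cul1 at -0.14 did not pass.

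Of 35 measured target genes 5 rose and 0 fell, and the median of the list was 0.03. The calls of 4 of these 5 were known when the list was written. Of the other 31 genes 1 rose, Prdm1, or 3.23%, beside 3.39% of all genes, so the count says nothing particular about target genes. Ccnd2, the G1 cyclin D2, read 10.98, 10.81 and 10.84 on the knockdown arrays, against 10.12, 10.07 and 10.05 on the control arrays. Its log2 difference of 0.79 ± 0.059 (SE, adjusted p = 0.00171) was close in size to that of Ptch1. Igf2, a fetal growth factor, read 8.45, 8.58 and 8.66 on the knockdown arrays, against 7.49, 7.74 and 7.60 on the control arrays, a log2 difference of 0.95 ± 0.081 (SE, adjusted p = 0.00188). Mycn, the Myc gene that Shh induces in cerebellar precursors, read 9.90, 9.78 and 9.88 on the knockdown arrays, against 9.40 on each control array, a log2 difference of 0.46 ± 0.051 (SE, adjusted p = 0.00493). These 3 genes answer to many other signals as well.

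Prdm1, a transcriptional repressor, rose by 0.37 ± 0.077 (SE, adjusted p = 0.036), and Snai1, a repressor of epithelial genes, by 0.23 ± 0.054 (SE, adjusted p = 0.049). Of the 6 fits with an array left out, Prdm1 was called in 1, that without knockdown array 3, and Snai1 in 0, with adjusted p of up to 0.137 and 0.165. Rab34, a small GTPase of the cilium, at -0.27, Nkx2-9, a homeobox gene of the ventral neural tube, at 0.41 and Ccnd1, cyclin D1, at 0.16 did not pass, with adjusted p of 0.104, 0.105 and 0.12.

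**Figure D4:**
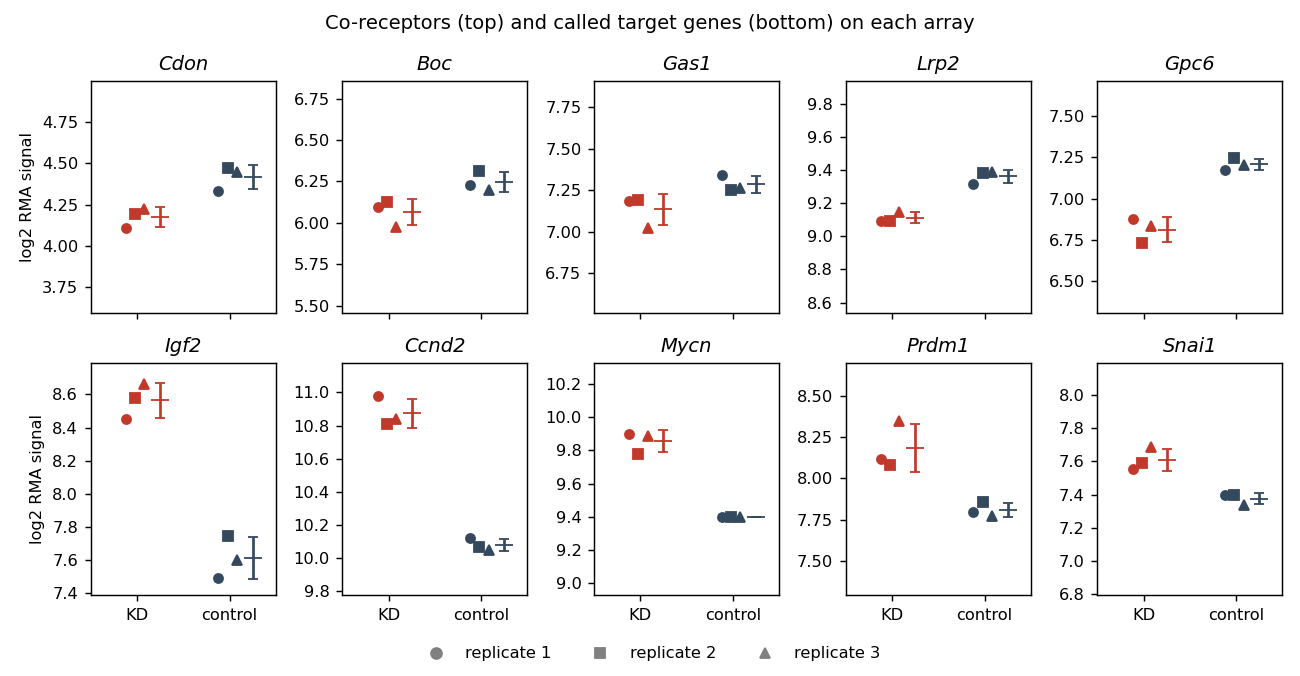
Log2 RMA signal (vertical axes, each spanning 1.4 log2 units) of the 5 receptor and co-receptor genes (top) and the 5 called target genes (bottom) on the 3 knockdown arrays (left) and 3 control arrays (right), with replicate symbols and bars for mean and SD. The groups do not overlap in any of the 10 panels, beside 25.5% of all genes. The bottom 5 genes were picked by their calls, so their lack of overlap is no added support.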

How the data were processed

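RNA of 3 Trim71 knockdown and 3 control samples was hybridised to single-colour Affymetrix arrays. The deposited table holds log2 signals per probe set, made with RMA and the affy package per the submitters' processing notes. RMA corrects background, quantile normalizes and summarizes probes, so a change shared by most genes cannot be seen, and no detection call is held. Tool versions and the genome build: not given in the sources used here. Replicates are not said to be separate cultures, so p-values measure the spread between these samples. The number of arrays limits the precision.

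Gene names came from the platform annotation held by GEO and were checked by gene identifier against RefSeq. Of the probe sets with 1 symbol, 21553 matched and 0 symbols changed. Symbols without a match may be outdated. Of 34760, 21640 had 1 symbol, 1321 several and 11799 none. For 954 genes with several probe sets the brightest was used, which left 19937 genes. Group was the only term of a limma 3.58.1 fit (R 4.3.3, lmFit, eBayes), with Benjamini-Hochberg adjustment over all genes and a call at an adjusted p under 0.05. Start regions came from RefSeq tables of GRCm38.p6. On simulated data with 200 of 19937 genes changed, this fit recovered 73% of 1.5-fold and 96% of 2-fold changes between knockdown and control. The simulated noise was independent for each gene and array. It held no shift shared by the genes of an array and no background, so recovery on these arrays and for dim genes may be lower.

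The members and lists were chosen with earlier results of these data known. Among the other pathway genes, every called gene and up to 3 more per list with the largest statistic were named, with for Ptch1 and Gli1 the 3 genes closest in centred values, leaving out predicted genes. Listed genes without a probe set of that symbol alone were not analysed here. Alternatives were the replicate block, each array left out, 2 rescalings, a trended and robust prior, array weights, mean probe sets, bright genes, no moderation and an adjusted p under 0.01. Plots were made with Python 3.11.15 and matplotlib 3.10.9.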

Additional observations from a re-analysis of the deposited data

How the results depend on the processing

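The Hedgehog members were chosen with these differences known, so their calls under other settings are a description. The number called stayed at 2 under all 15 alternatives, and Ptch1 and Gli1 were called each time, with log2 differences from 0.77 to 0.82 and from 0.61 to 0.68. Trim71 was called each time, between -1.55 and -1.51. Of the 7 other members 0 were called under any alternative that tested them. Sufu, Hhip and Gpr161, all near 0, changed sign in some. The median filter left out Hhip, Gpr161 and Shh. The other pathway genes called went from 10 to 3 with the replicate block, 23 with the trended and robust prior, 17 with array weights, 20 of 62 above the median level, 5 without moderation and 4 at an adjusted p under 0.01. The genes called over the whole table went from 1103 to 279 with the replicate block, 2067, 2172, 1890, 413 and 246 in the same order. With an array left out, 3 to 10 other pathway genes and 249 to 1302 genes in all were called. Deviations from the group means correlated at -0.017, -0.15 and -0.241 between same-numbered arrays, and from -0.228 to 0.284 between unlike-numbered ones. Deviations within a group of 3 sum to 0, so these values cannot tell whether same-numbered arrays shared a culture or run. Signal over background limits what can be seen of dim genes such as Cdon and Shh.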
